A study of Mus musculus with 16 samples.

Results

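The liver mRNA of 10 acute phase plasma proteins was followed across the 4 groups of this study: the serum amyloid A genes Saa1, Saa2, Saa3 and Saa4, the orosomucoid genes Orm1 and Orm2, haptoglobin (Hp), hemopexin (Hpx), lipocalin 2 (Lcn2) and serum amyloid P component (Apcs). The genes were picked by name, with earlier results of these data known. Every probe set annotated to them was taken, which gave 12 probe sets of the 45037 on the array and 10 of 18193 genes. By the symbols of the annotation no probe set was shared with another gene, although Saa1 and Saa2 were not cleanly separated, as described below. Total liver RNA of 16 male mice aged 12 to 20 weeks was hybridized without pooling, 1 Affymetrix whole-genome mouse array per mouse. The groups were PPARα-null mice (knockout, KO) on Wy14643, wild-type (WT) mice on Wy14643, PPARα-null mice on control food and wild-type mice on control food, with 4 mice each. Wy14643, written WY14643 in the labels, is a synthetic agonist of the nuclear receptor PPARα, and it was mixed into the food at 0.1% for 5 days. The knockout is constitutive, so the receptor was missing from every cell of the animal and not only from hepatocytes. Wild-type mice were 129S1/SvImJ and PPARα-null mice 129S4/SvJae, so that genotype and substrain cannot be told apart in any comparison between genotypes. The responses to Wy14643 compare mice of the same substrain.

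The acute phase response is the change in the output of plasma proteins by hepatocytes during infection, injury or inflammation. Interleukin 6 signals to these genes through its receptor and STAT3, interleukin 1 and tumor necrosis factor through NF-κB, and transcription factors of the C/EBP family bind many of their promoters. Proteins that rise are called positive acute phase proteins and those that decline, such as albumin and transthyretin, are called negative. PPARα, which is abundant in hepatocytes, is best known as the activator of the genes of fatty acid oxidation.

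In outline, 8 of the 10 genes were higher in PPARα-null than in wild-type mice on Wy14643, where 7.13% of all genes were, and 7 of the 10 fell in wild-type mice when Wy14643 was added to the food, where 6.74% of all genes fell. Lcn2 rose in wild-type mice on Wy14643, and Hp did not pass the test in any comparison. In PPARα-null mice none of the 10 passed the test of the response to Wy14643, which 0.0275% of all genes passed. A gene was called when the adjusted p-value of limma over all probe sets was under 0.01 and the fold change over 1.5.

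To show what the SAA genes share and where Saa1 and Saa2 can be confused, the 250 bases before the start of transcription are printed for the genes with the largest responses, for Saa4, their neighbor on chromosome 7, and for Lcn2, which moved the opposite way. The windows are from RefSeq on GRCm38.p6, written 5′ to 3′ on the strand of the gene, and windows were found for 8 of the 10 genes, all except Orm1 and Hp. Capitals mark matches to the C/EBP motif TTNNGNAA on either strand.
Saa1 chr7:46742981-46743230 (-): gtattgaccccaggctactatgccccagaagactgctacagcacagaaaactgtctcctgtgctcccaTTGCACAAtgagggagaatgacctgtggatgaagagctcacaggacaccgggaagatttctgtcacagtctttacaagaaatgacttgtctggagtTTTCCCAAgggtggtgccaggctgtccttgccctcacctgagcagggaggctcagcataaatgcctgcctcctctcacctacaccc
Saa2 chr7:46751583-46751832 (+): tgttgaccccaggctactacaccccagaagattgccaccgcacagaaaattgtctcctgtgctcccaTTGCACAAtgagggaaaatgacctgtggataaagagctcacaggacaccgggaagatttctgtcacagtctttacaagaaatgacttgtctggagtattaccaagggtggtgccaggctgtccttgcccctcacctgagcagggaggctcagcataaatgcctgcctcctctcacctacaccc
Saa4 chr7:46732604-46732853 (-): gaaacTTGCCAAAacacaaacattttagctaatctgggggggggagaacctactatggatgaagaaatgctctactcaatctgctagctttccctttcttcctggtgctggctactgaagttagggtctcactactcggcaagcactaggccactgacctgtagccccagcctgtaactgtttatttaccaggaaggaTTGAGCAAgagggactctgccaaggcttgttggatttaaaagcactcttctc
Orm2 chr4:63362199-63362448 (+): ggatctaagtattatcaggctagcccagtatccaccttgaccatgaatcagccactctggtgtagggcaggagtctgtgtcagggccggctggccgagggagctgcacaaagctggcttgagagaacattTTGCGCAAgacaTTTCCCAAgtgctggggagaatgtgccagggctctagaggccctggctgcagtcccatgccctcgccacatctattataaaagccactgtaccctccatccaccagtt
Lcn2 chr2:32387740-32387989 (-): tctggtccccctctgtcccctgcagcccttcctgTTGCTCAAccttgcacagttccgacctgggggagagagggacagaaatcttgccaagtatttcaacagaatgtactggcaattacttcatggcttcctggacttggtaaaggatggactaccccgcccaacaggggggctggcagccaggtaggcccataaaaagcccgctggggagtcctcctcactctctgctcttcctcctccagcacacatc
The windows of Saa1 and Saa2 were 95.6% identical, with 238 identical bases among 249 aligned, whereas Saa1 and Saa4 shared 55.8% of aligned bases. The C/EBP motif was present in 7 of the 8 windows, all but that of Apcs, and in 36.9% of 27025 windows of the same length over all genes. In Saa1 the matches lay 182 to 175 and 86 to 79 bases before the start. Saa2 held the counterpart of the first, 183 to 176 bases before its start, and no match at the place of the second. The STAT motif TTCNNNGAA was found in the window of Apcs alone, 244 to 236 bases before the start, and in 7.18% of all windows. It has letters in common with the C/EBP motif, but no match of one overlapped a match of the other here. The NF-κB consensus was in 0 of the 8 windows and in 3.75% of all windows. A direct repeat of the kind bound by PPARα, 2 copies of AGGTCA with 1 base of any kind between them, was in 0 of the 8 and in 0.037% of all windows. These are matches of letters in a short window, and binding was not measured.

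The array did not separate Saa1 from Saa2 cleanly, and this holds for every value of the pair. The names of these genes have been exchanged in the past, and each is listed as a synonym of the other. Of the probe sets assigned to Saa1, 1419075_s_at carries an accession that RefSeq lists under Saa2, whereas the accession of 1450788_at belongs to Saa1. Saa2 was read with 1449326_x_at, which carries the same accession as 1419075_s_at and whose suffix marks probes that may bind related transcripts. The values of Saa1 and Saa2 are therefore not independent readings in the counts of genes. When a gene had more than 1 probe set, the brightest over the 16 arrays represented it.

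Saa1 and Saa2 encode the SAA proteins that circulate on high density lipoprotein and increase most in the acute phase of mice. The log2 level of Saa1 at 1419075_s_at was 7.68, 9.15, 7.66 and 7.51 in the 4 PPARα-null mice on Wy14643, against 3.20, 3.28, 2.90 and 5.06 in the 4 wild-type mice on Wy14643. On control food the log2 level was 8.76, 8.45, 8.40 and 9.42 in PPARα-null mice, against 8.07, 7.53, 7.39 and 8.53 in wild-type mice. The wild-type mice on Wy14643 lay apart from all others, and the arrays of the remaining 3 groups overlapped in the order of their means, PPARα-null on control food highest, then PPARα-null on Wy14643, then wild-type on control food. Saa1 was 20.9-fold higher in PPARα-null than in wild-type mice on Wy14643, a log2 difference of 4.39 ± 0.43 (SE, n = 4 each, limma adjusted p = 5.38e-07). Among 18193 genes this was the 18th largest increase. The fall in wild-type mice on Wy14643, by 4.27 ± 0.43 (adjusted p = 8.54e-07), was the 13th largest decrease. Saa1 was dim in wild-type mice on Wy14643 (mean log2 level 3.61), so the size and rank of both differences are uncertain. In PPARα-null mice the log2 response to Wy14643 was -0.76 (95% confidence interval -1.68 to 0.16, adjusted p = 0.635). The responses of the genotypes differed by 3.51 ± 0.61 (interaction, adjusted p = 6.64e-04).

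The other Saa1 probe set, 1450788_at, set the same group apart. Its log2 level was 7.70, 9.29, 7.83 and 7.74 in PPARα-null mice on Wy14643, against 2.52, 2.60, 2.05 and 3.28 in wild-type mice on Wy14643. On control food 1450788_at gave 8.95, 8.77, 8.55 and 9.66 in PPARα-null mice, against 8.22, 7.58, 7.30 and 8.68 in wild-type mice. In wild-type mice on Wy14643, 1 of the 4 arrays lay below the highest array median (2.24), which stands here for the level of a probe set with no clear signal. The log2 difference between genotypes on Wy14643 was 5.53 ± 0.37 (adjusted p = 3.57e-09), and the wild-type response was -5.33 ± 0.37 (adjusted p = 6.46e-09). With the wild-type mice on Wy14643 so close to background, the size of both is uncertain and no fold change is given. The response of PPARα-null mice was -0.84 (95% confidence interval -1.62 to -0.06, adjusted p = 0.504), and the difference between genotypes on control food was 1.04 (0.26 to 1.81, adjusted p = 0.384), neither of them called.

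For Saa2 the log2 level was 4.47, 6.73, 5.66 and 5.53 in PPARα-null mice on Wy14643, against 3.08, 3.74, 3.21 and 3.72 in wild-type mice on Wy14643. On control food it was 6.43, 5.97, 6.01 and 7.30 in PPARα-null mice, against 5.98, 5.23, 5.26 and 6.25 in wild-type mice. Again only the wild-type mice on Wy14643 stood below the rest. Saa2 was dim in them as well (mean log2 level 3.44), so the size of differences from these mice is uncertain. Saa2 was 4.48-fold higher in PPARα-null mice on Wy14643 (2.16 ± 0.39, adjusted p = 4.13e-04) and fell by 2.24 ± 0.39 in wild-type mice on Wy14643 (adjusted p = 3.09e-04). The log2 response in PPARα-null mice was -0.83 (95% confidence interval -1.65 to -0.01, adjusted p = 0.535), and the difference of the responses, 1.41 ± 0.55, was not called (adjusted p = 0.117).

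Saa3 in mice is made by macrophages and fat cells as well as by liver. Its log2 level was 4.63, 4.97, 4.72 and 5.30 in PPARα-null mice on Wy14643, against 3.85, 3.90, 3.90 and 3.58 in wild-type mice on Wy14643. The level on control food was 4.43, 4.66, 5.09 and 4.43 in PPARα-null mice, against 4.16, 4.33, 4.24 and 4.36 in wild-type mice. Here the genotypes did not overlap on either food, although the gap on control food was narrow. The log2 difference on Wy14643 was 1.10 ± 0.16, or 2.14-fold (adjusted p = 3.91e-05), and was no longer called when tested against a fold of 1.5 (adjusted p = 0.0453). The wild-type response was -0.46 ± 0.16 and was not called (adjusted p = 0.0448).

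Saa4, the SAA gene that is expressed without an inflammatory stimulus, differed by a similar amount at both of its probe sets. At 1419318_at the log2 level was 10.95, 11.17, 11.00 and 11.10 in PPARα-null mice on Wy14643, against 8.87, 9.07, 9.56 and 9.46 in wild-type mice on Wy14643. The log2 level at 1419319_at was 9.78, 9.96, 9.88 and 10.23 in PPARα-null mice on Wy14643, against 7.69, 7.91, 8.34 and 8.46 in wild-type mice on Wy14643. On control food 1419318_at gave 10.95, 11.11, 11.01 and 11.18 in PPARα-null mice, against 10.84, 10.99, 10.92 and 11.24 in wild-type mice, and these groups overlapped. The log2 difference between genotypes on Wy14643 was 1.81 ± 0.13, or 3.52-fold (adjusted p = 1.53e-08), and 1.86 ± 0.16 at 1419319_at (adjusted p = 1.26e-07). The wild-type response was -1.76 ± 0.13 (adjusted p = 2.56e-08), and that of PPARα-null mice was -0.01 (95% confidence interval -0.29 to 0.28). The responses differed by 1.75 ± 0.19 (adjusted p = 4.92e-06).

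Orm1 and Orm2 encode α1-acid glycoprotein, a plasma lipocalin that binds many drugs and lipids. Orm1 had a log2 level of 12.63, 12.75, 12.87 and 12.63 in PPARα-null mice on Wy14643, against 11.20, 11.42, 11.29 and 11.47 in wild-type mice on Wy14643. The level on control food was 12.85, 12.85, 12.90 and 12.97 in PPARα-null mice, against 12.75, 12.75, 12.85 and 12.92 in wild-type mice. The mice of each group were close together, and only the wild-type mice on Wy14643 stood apart. Orm1 was 2.59-fold higher in PPARα-null mice on Wy14643 (1.38 ± 0.09, adjusted p = 2.42e-09) and fell by 1.47 ± 0.09 in wild-type mice on Wy14643 (adjusted p = 1.17e-09). The response in PPARα-null mice was -0.17 (95% confidence interval -0.36 to 0.02), and the responses differed by 1.30 ± 0.13 (adjusted p = 1.21e-06).

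Orm2 had a log2 level of 5.24, 5.79, 5.77 and 4.49 in PPARα-null mice on Wy14643, against 2.76, 2.76, 2.49 and 3.26 in wild-type mice on Wy14643. On control food it was 5.66, 5.75, 5.13 and 5.90 in PPARα-null mice, against 5.52, 4.67, 4.17 and 5.34 in wild-type mice. Its groups were wider than those of Orm1, and the wild-type mice on Wy14643 came near the level without clear signal. The size of differences from these mice is therefore uncertain. The log2 difference between genotypes on Wy14643 was 2.51 ± 0.30, or 5.68-fold (adjusted p = 6.21e-06), and the wild-type response was -2.11 ± 0.30 (adjusted p = 4.77e-05). The difference of the responses, 1.82 ± 0.43, passed narrowly (adjusted p = 0.00788) and lost its call in 13 of the 16 fits that left out 1 mouse. The third orosomucoid gene, Orm3, named here after its values were seen, had mean log2 levels of 2.54, 1.92, 3.02 and 3.29 in PPARα-null mice on Wy14643, wild-type mice on Wy14643, PPARα-null mice on control food and wild-type mice on control food, too close to the level without clear signal for a fold change.

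Hp and Hpx clear hemoglobin and free heme from plasma, and the pair did not move alike. Hp had a log2 level of 12.90, 12.93, 12.70 and 12.94 in PPARα-null mice on Wy14643, against 12.67, 12.56, 12.69 and 12.60 in wild-type mice on Wy14643. The level on control food was 12.91, 12.91, 12.88 and 12.81 in PPARα-null mice, against 12.70, 12.63, 12.69 and 12.80 in wild-type mice. The genotypes did not overlap on either food, yet the log2 differences were small, 0.24 (95% confidence interval 0.07 to 0.41, adjusted p = 0.0437) on Wy14643 and 0.17 (0.00 to 0.34, adjusted p = 0.593) on control food. The response to Wy14643 was -0.01 in PPARα-null mice (95% confidence interval -0.18 to 0.16) and -0.07 in wild-type mice (-0.25 to 0.10), so that a response as large as that of Hpx lay outside the interval in wild-type mice.

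Hpx had a log2 level of 13.09, 13.19, 12.99 and 13.21 in PPARα-null mice on Wy14643, against 12.28, 12.36, 12.37 and 12.42 in wild-type mice on Wy14643. On control food it was 13.10, 13.14, 13.16 and 13.12 in PPARα-null mice, against 12.98, 13.01, 13.01 and 13.10 in wild-type mice. Wild-type mice on Wy14643 were again below every other mouse. The log2 difference on Wy14643 was 0.76 ± 0.08, or 1.70-fold (adjusted p = 6.39e-07), the wild-type response -0.67 ± 0.08 (adjusted p = 3.77e-06) and the difference of the responses 0.66 ± 0.11 (adjusted p = 3.82e-04). These calls ended when the test asked for more than a 1.5-fold change in place of any change.

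Apcs, a pentraxin and the main acute phase protein of that family in mice, had a log2 level of 11.76, 11.85, 11.81 and 11.90 in PPARα-null mice on Wy14643, against 10.36, 10.47, 10.24 and 10.33 in wild-type mice on Wy14643. The level on control food was 11.70, 11.85, 11.92 and 11.72 in PPARα-null mice, against 11.63, 11.73, 11.67 and 11.88 in wild-type mice. As for Orm1, the groups were narrow and wild-type mice on Wy14643 alone were low. Apcs was 2.79-fold higher in PPARα-null mice on Wy14643 (1.48 ± 0.09, adjusted p = 7.08e-10) and fell by 1.38 ± 0.09 in wild-type mice on Wy14643 (adjusted p = 2.16e-09). In PPARα-null mice the response was 0.03 (95% confidence interval -0.15 to 0.22), and the responses differed by 1.41 ± 0.12 (adjusted p = 3.45e-07).

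Lcn2 encodes a lipocalin that withholds iron from bacteria by binding their siderophores, and it was the exception. Its log2 level was 5.63, 6.56, 5.47 and 4.74 in PPARα-null mice on Wy14643, against 6.66, 6.87, 5.83 and 6.88 in wild-type mice on Wy14643. On control food it was 5.84, 5.97, 5.94 and 7.10 in PPARα-null mice, against 3.75, 4.25, 4.66 and 5.42 in wild-type mice. Wild-type mice on control food were the low group, below all PPARα-null mice on control food and all wild-type mice on Wy14643, while their highest mouse overlapped the PPARα-null mice on Wy14643. Lcn2 rose 4.12-fold in wild-type mice on Wy14643 (2.04 ± 0.39, adjusted p = 8.34e-04), and the response in PPARα-null mice was -0.61 (95% confidence interval -1.44 to 0.22). The responses differed by -2.66 ± 0.55 (adjusted p = 0.00315). Tested against a fold of 1.5, neither the rise (adjusted p = 0.0213) nor the difference of the responses (adjusted p = 0.0305) was called, and the difference of the responses was also lost with trend and robust moderation (adjusted p = 0.0113) and with an offset of 16 (adjusted p = 0.0101). On control food Lcn2 was 1.69 ± 0.39 higher on the log2 scale in PPARα-null mice, the 16th largest increase among 18193 genes and without overlap of the mice, but it was not called (adjusted p = 0.0655). On Wy14643 the log2 difference between genotypes was -0.96 ± 0.39 and not called (adjusted p = 0.0998).

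**Figure D1:**
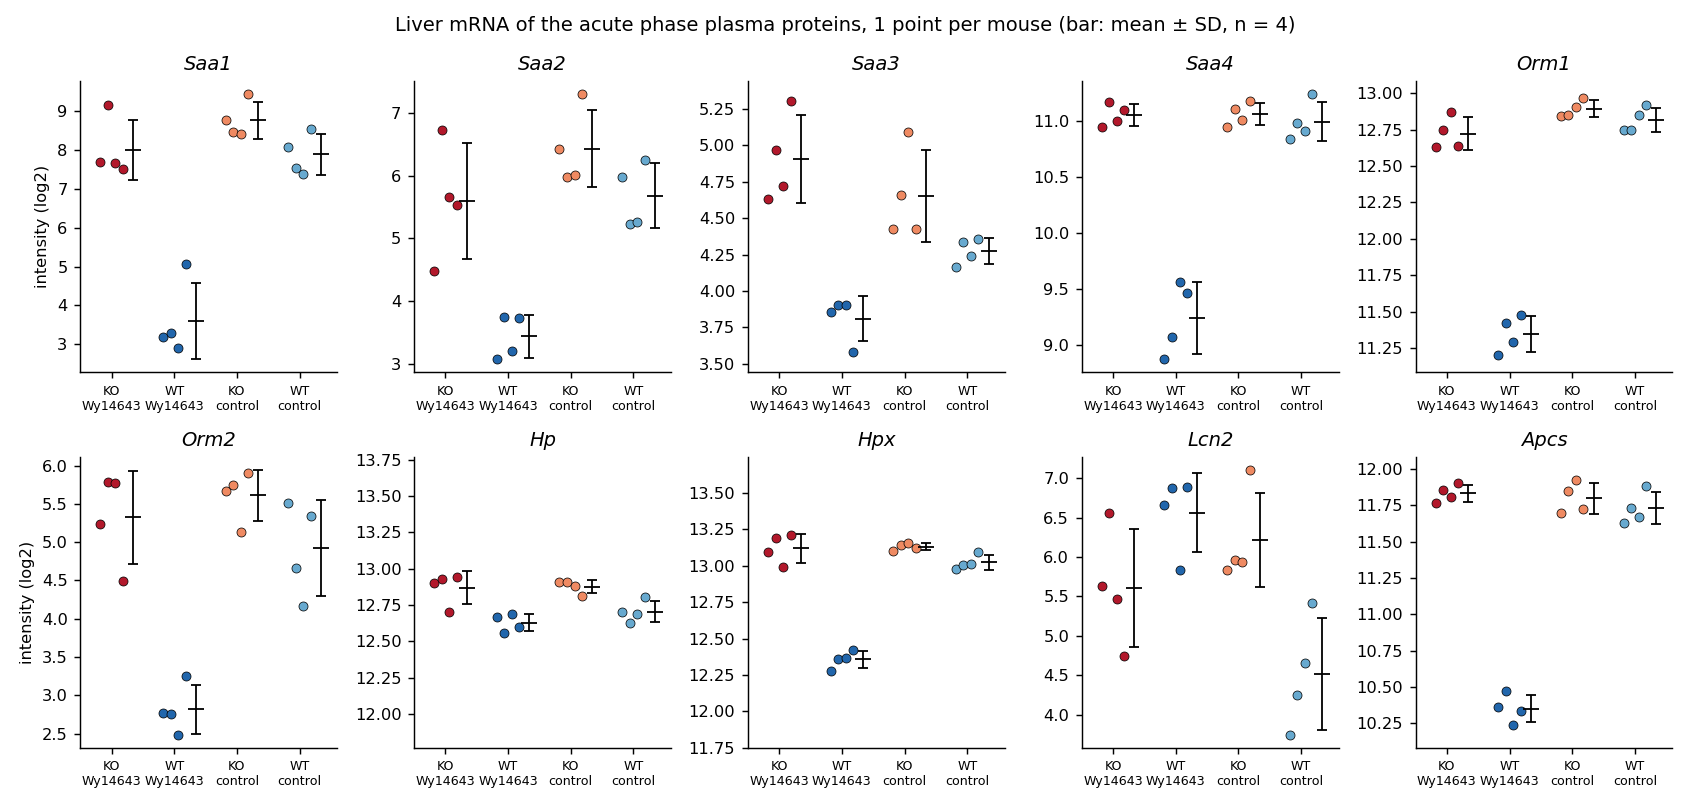
Log2 intensity of each of the 10 genes (vertical axis, a separate range in each panel) in PPARα-null (KO) and wild-type (WT) mice on Wy14643 and on control food (horizontal axis). Points are mice and bars the mean ± SD of 4. Wild-type mice on Wy14643 are the low group in every panel except Lcn2, where wild-type mice on control food are low, and Hp, where the 2 wild-type groups overlap.

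Set against the whole array, the 8 genes of 10 that were higher in PPARα-null mice on Wy14643, and the 0 that were lower, compare with 7.13% and 8.12% of all genes. The median log2 difference of the 10 was 1.43, against 0.04 over all genes. The mice of the genotypes did not overlap for 9 of the 10, all but Lcn2, against 27.7% of all genes. In the wild-type response 7 fell and Lcn2 rose, where 6.74% of all genes fell and 7.72% rose, and the median was -1.42 against -0.03. There, too, 9 of the 10 did not overlap, against 29.1% of all genes. These comparisons have the wild-type arrays on Wy14643 in common, so a low level in those mice enters both. Because the 10 genes were chosen with earlier results of these data known, the shares describe them and are not a test of the set.

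In PPARα-null mice, 0 of the 10 were called for the response to Wy14643 with limma, and by the brightest probe set of each gene only Saa2 had an unadjusted p under 0.05 (0.0467). The Saa1 probe set 1450788_at, which was not the brightest, had one too (0.0354), and both values were below 0. Few genes of any kind passed in this comparison, 0.0275% of all genes, and all were higher. The median of the 10 was -0.09, and the mice on and off Wy14643 overlapped for all 10, while 6.38% of all genes did not overlap. On control food 0 of the 10 were called between genotypes, where 0.143% of all genes were called higher and 0.401% lower. All 10 log2 differences were nonetheless above 0 there, with a median of 0.28 against -0.00148 over all genes, and 4 of the 10 (Saa3, Hp, Hpx and Lcn2) did not overlap, against 8.16% of all genes. An unadjusted p under 0.05 was found for 4 by the brightest probe set, namely Saa3, Orm2, Hp and Lcn2, and for Saa1 at 1450788_at (0.0120).

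The test of the interaction asked whether the response to Wy14643 differed between the genotypes. It called Saa1, Saa4, Orm1, Orm2, Hpx and Apcs with a less negative response in PPARα-null mice, where 4.62% of all genes were called in that direction, and Lcn2 with a lower one, where 5.38% were. For Saa2 (adjusted p = 0.117), Saa3 (adjusted p = 0.0416) and Hp (adjusted p = 0.804) a difference of the responses was not shown.

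**Figure D2:**
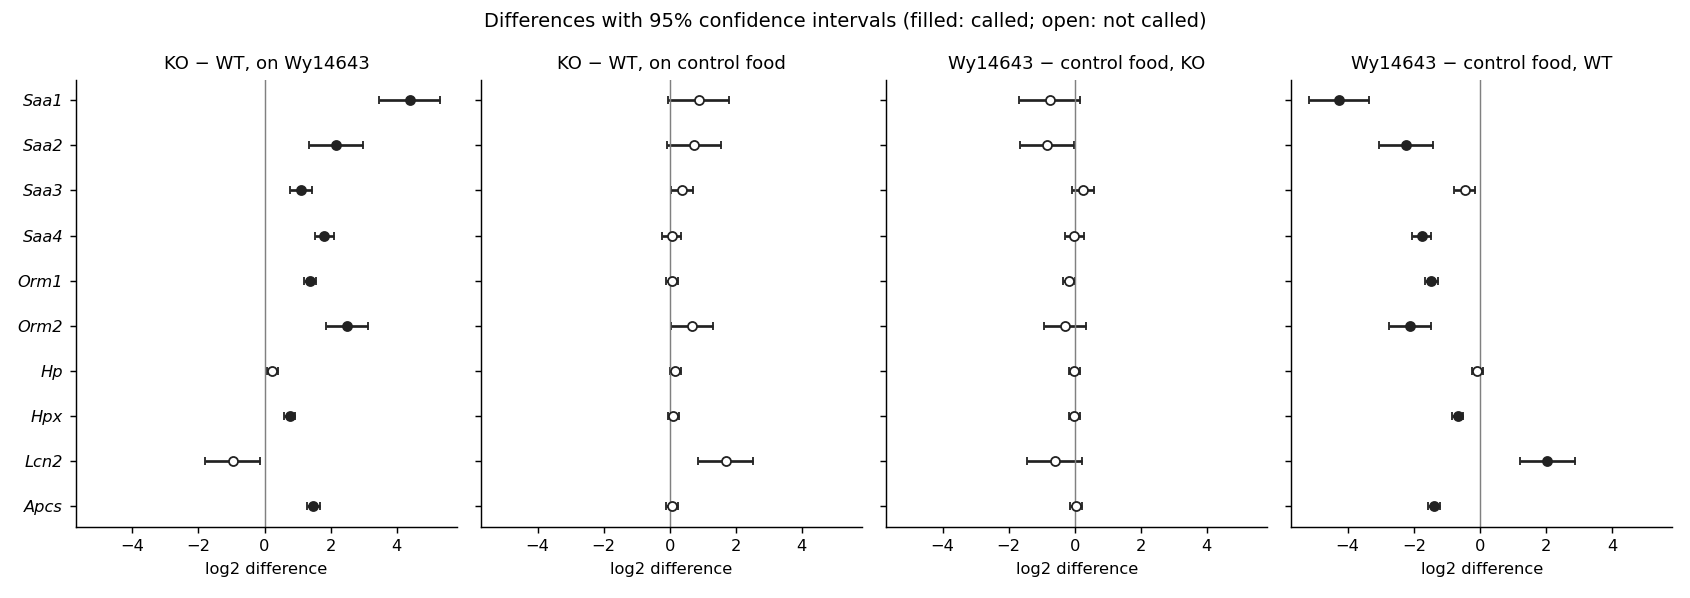
Log2 difference of each gene (horizontal axis) with its 95% confidence interval in the 4 comparisons (panels), with filled points for called genes. The differences on Wy14643 and in wild-type mice lie far from 0 in opposite directions, between 0.76 and 4.39 and between -4.27 and -0.67 for the called genes other than Lcn2, while the KO response and the comparison on control food hold open points only.

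The genes fell into a variable and a steady set when mice of the same group were compared. The pooled within-group SD on the log2 scale was 0.72 for Saa1, 0.64 for Lcn2, 0.64 for Saa2 and 0.49 for Orm2, against 0.24 for Saa3, 0.20 for Saa4, 0.10 for Orm1, 0.10 for Apcs, 0.08 for Hp and 0.06 for Hpx. Over the 16 arrays the variable genes had mean log2 levels of 4.67 to 7.06, and the steady genes 10.6 to 12.9 except Saa3 at 4.41. The part of intensity in the spread was not tested. Single mice were high for several genes together. Replicate 4 of the wild-type mice on control food had the highest level in its group for 9 of the 10 genes, all except Orm2. Its margin over the next mouse ranged from narrow, as for Hp (12.80 beside 12.70), to wide, as for Lcn2 (5.42 beside 4.66). The share of all genes that were highest on each array was not taken. Replicate 4 of the PPARα-null mice on control food was highest for 6, and replicate 2 of the PPARα-null mice on Wy14643 for 5, namely Saa1, Saa2, Saa4, Orm2 and Lcn2. In wild-type mice on Wy14643 replicate 4 was highest for 5, with a Saa1 level of 5.06 beside 2.90 to 3.28 in the other mice. Without this mouse the wild-type response of Saa1 was -4.75, and without replicate 2 of the PPARα-null mice on Wy14643 the difference between genotypes was 4.01, and both calls were kept.

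Across the 16 mice, the deviations of Saa1 from the group means followed those of Saa2 (Pearson r = 0.73, Spearman rho = 0.60, and r = 0.73 without the 2 mice farthest from the median of Saa1), of Orm2 (r = 0.68, rho = 0.81, and r = 0.66) and of Lcn2 (r = 0.66, rho = 0.54, and r = 0.62). The 2 Saa1 probe sets correlated at 0.93, and 1450788_at with the Saa2 probe set at 0.86. These values describe 16 arrays of 4 groups, and were picked from 45 pairs of genes. Probes that bind more than 1 SAA transcript may be shared, and the brightest probe sets of Saa1 and Saa2 carry the same accession. The part of this in the correlations was not tested. With Saa3 the correlation of Saa1 was -0.35. Outside the 10 genes, among 5164 genes with a mean log2 level above 6, the deviations most like those of Saa1 belonged to Phkb (r = 0.84), Cavin2 (r = 0.78) and Bgn (r = 0.78), those most like Lcn2 to Kpna1 (r = 0.86), Shc1 (r = 0.82) and Sqle (r = 0.79), and those most like Saa2 to Anxa4 (r = 0.79), C1galt1 (r = 0.76) and Ghr (r = 0.75). With this many genes searched, high values arise readily.

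**Figure D3:**
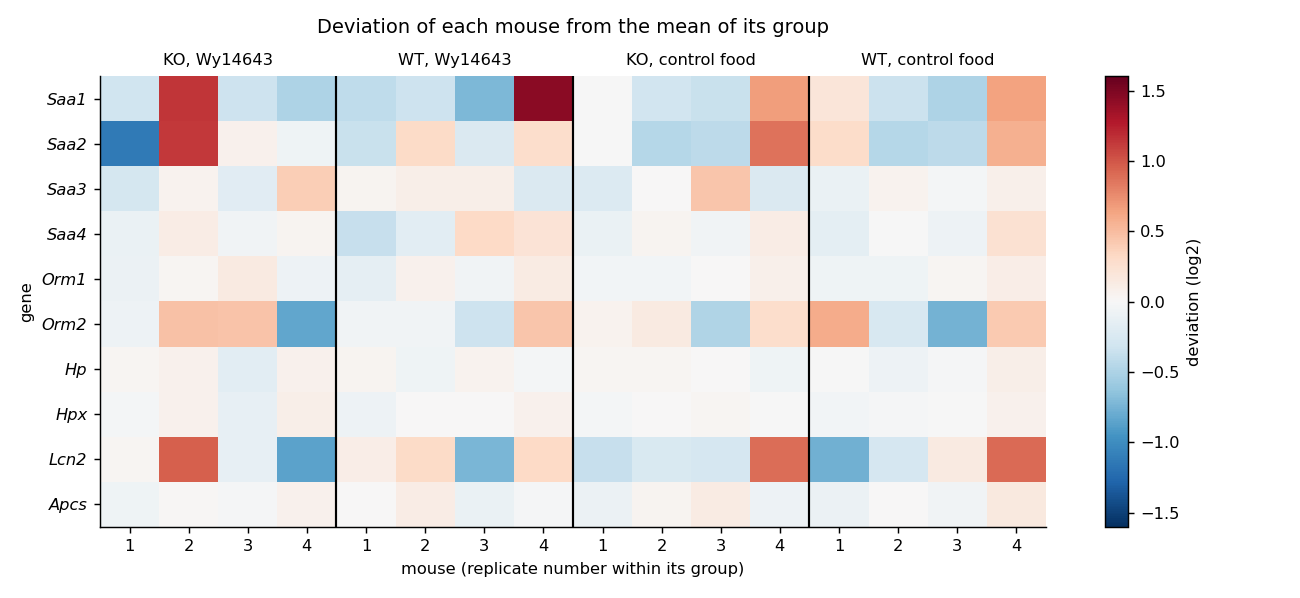
Deviation of each mouse (columns, replicate number within its group) from its group mean for each gene (rows), on a log2 color scale. Saa1, Saa2, Orm2 and Lcn2 hold the strong colors, and single mice such as replicate 2 of the KO mice on Wy14643 and replicate 4 of both control groups are high for several of these genes at once.

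Other positive acute phase proteins moved mostly, but not only, the same way. Of 28 measured, 16 fell and 6 rose in wild-type mice on Wy14643, with a median log2 difference of -0.76, and 13 were higher and 7 lower in PPARα-null than in wild-type mice on Wy14643, with a median of 0.58. Of the 28, limma called 0 in the response of PPARα-null mice, where 5 had an unadjusted p under 0.05, and 0 between genotypes on control food, where 3 had. Ifitm3 was on this list, although it is an interferon-induced membrane protein and not a plasma protein. Its mean log2 level was 11.95 in PPARα-null and 8.34 in wild-type mice on Wy14643, a difference of 3.61 ± 0.13 (adjusted p = 6.02e-13). The metallothioneins Mt1 and Mt2, which bind zinc and copper, rose like Lcn2. Mt1 rose in wild-type mice on Wy14643 by 4.76 ± 0.35 (adjusted p = 1.57e-08) and Mt2 by 4.51 ± 0.53 (adjusted p = 5.00e-06) on the log2 scale. Il1rn, the interleukin 1 receptor antagonist, reached a mean log2 level of 6.61 in wild-type mice on Wy14643, against 2.45 in PPARα-null mice on Wy14643 (adjusted p = 2.13e-09 for the wild-type response). On control food its mean was 2.14 in PPARα-null and 1.95 in wild-type mice, both below the highest array median and so without clear signal.

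Negative acute phase proteins did not move the opposite way. Of 14 measured, 6 fell and 0 rose in wild-type mice on Wy14643 (median log2 difference -0.50), and 6 were higher and 1 lower in PPARα-null mice on Wy14643 (median 0.45). Serpina6, the corticosteroid-binding globulin, fell by 1.59 ± 0.17 in wild-type mice on Wy14643 (adjusted p = 2.12e-06). The growth factor Igf1 fell by 1.33 ± 0.10 (adjusted p = 1.17e-08), and Fetub, a fetuin, fell by 1.29 ± 0.07 (adjusted p = 4.75e-10). Albumin (Alb) and transthyretin (Ttr) were not called, with wild-type responses of -0.07 and -0.10.

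**Figure D4:**
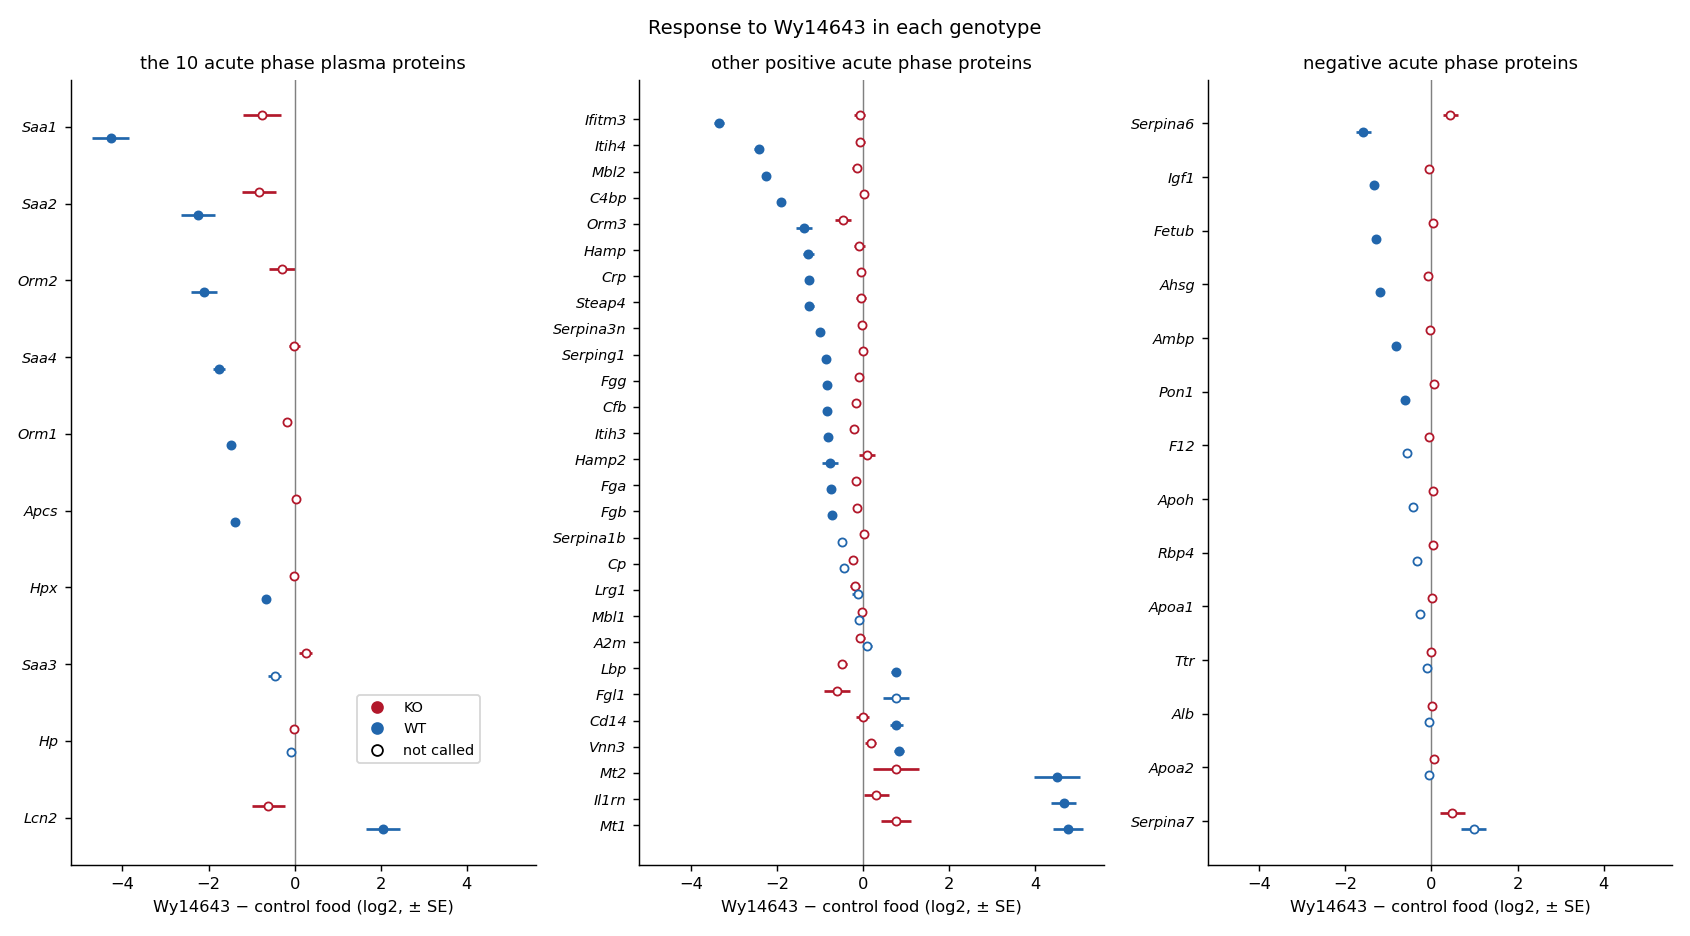
Log2 response to Wy14643 (horizontal axis, ± SE, n = 4 against 4) in KO mice (red) and WT mice (blue) for the 10 genes, 28 other positive and 14 negative acute phase proteins (panels), sorted by the WT response, with filled points for called genes. WT points lie left of 0 for most genes in all 3 panels, Lcn2, Mt1, Mt2 and Il1rn are among those to the right, and no KO point is filled.

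Upstream of these genes, 9 inflammatory cytokines were measured and 0 were called in any comparison by limma, with 0 to 2 of the 9 at an unadjusted p under 0.05, among them Il6 with group means of 0.95 to 1.21 on the log2 scale and Il1b with 2.08 to 2.35. Except for Tgfb1 and the PPARα-null groups of Il1a and Il1b, and wild-type mice on control food for Il1b, their group means were at or below the highest array median. Of 23 cytokine receptors and signalling genes, 6 fell and 1 rose in wild-type mice on Wy14643 (median -0.18), and 6 were higher and 2 lower in PPARα-null mice on Wy14643 (median 0.07). Lifr, the leukemia inhibitory factor receptor, fell by 3.22 ± 0.22 in wild-type mice (adjusted p = 4.43e-09), Il1rap, the accessory chain of the interleukin 1 receptor, by 2.12 ± 0.07 (adjusted p = 7.98e-13) and the kinase Ikbkb by 0.97 ± 0.10 (adjusted p = 5.68e-07). The ligand-binding chain of the interleukin 6 receptor, Il6ra, fell by 1.65 ± 0.17 (adjusted p = 1.34e-06). Il1r1, the interleukin 1 receptor, had a wild-type response of 0.68 ± 0.21 that was not called (adjusted p = 0.0268) and was 1.19 lower on the log2 scale in PPARα-null mice on Wy14643 (a difference of -1.19 ± 0.21, adjusted p = 3.47e-04).

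Transcription factors of the acute phase were split. Of 19 measured, 4 fell and 3 rose in wild-type mice on Wy14643 (median -0.05). Stat3, the mediator of interleukin 6, fell by 0.81 ± 0.09 (adjusted p = 2.73e-06), and its response differed between the genotypes by 0.79 ± 0.13 (adjusted p = 3.31e-04). Stat5b fell by 1.38 ± 0.16 (adjusted p = 5.63e-06) and the orphan receptor Nr0b2 by 1.37 ± 0.33 (adjusted p = 0.00587). Jun, a subunit of AP-1, rose by 1.81 ± 0.40 (adjusted p = 0.00305). Of the C/EBP factors, Cebpb rose by 0.93 ± 0.20 (adjusted p = 0.00263), Cebpd had a response of 0.65 ± 0.23 (adjusted p = 0.0619), and Cebpa was 1.03 ± 0.19 higher in PPARα-null than in wild-type mice on Wy14643 (adjusted p = 5.52e-04). Creb3l3, a liver factor that is cleaved under stress, was the 1 gene of this set called on control food, with a log2 difference of -0.72 ± 0.10 in PPARα-null mice (adjusted p = 5.25e-04).

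Receptors and partners that clear or use the 10 proteins were a smaller group. Of 17 measured, 2 fell and 2 rose in wild-type mice on Wy14643 (median -0.28). Bdh2, a dehydrogenase linked in mice to the siderophore that Lcn2 binds, had mean log2 levels of 7.78 in PPARα-null and 3.99 in wild-type mice on Wy14643, and fell by 3.38 ± 0.14 in wild-type mice (adjusted p = 4.99e-12). Blvrb, a biliverdin reductase of heme breakdown, rose by 1.17 ± 0.12 (adjusted p = 5.58e-07), and the transferrin receptor Tfrc by 1.11 ± 0.20 (adjusted p = 4.31e-04). The hemoglobin scavenger receptor Cd163 and the hemopexin receptor Lrp1 were not called, with wild-type responses of -0.45 (adjusted p = 0.161) and -0.53 (adjusted p = 0.00141, under the fold threshold).

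The arrays measured whole liver, in which fewer cells of a type and less RNA per cell cannot be told apart. All 10 hepatocyte markers lay above the highest array median in every group. Of these markers, Alb, Ttr and Apoa1 were also counted among the negative acute phase proteins, so the set overlaps the acute phase genes. The summed intensity of the markers was 79435 to 82265 in PPARα-null mice on Wy14643 and 62139 to 66245 in wild-type mice on Wy14643. On control food it was 80148 to 82822 in PPARα-null mice and 82259 to 85622 in wild-type mice. In the wild-type response 4 of the 10 fell, namely Cps1, Asgr2, Serpina1c and Fgb. The sum over 15 Kupffer cell markers moved in the same direction, with 1620 to 2275, 933 to 1197, 1850 to 2294 and 1629 to 1891 in the same order of groups, and 11 of the 15 fell in the wild-type response, with Marco and Timd4 at or below the highest array median in wild-type mice on Wy14643. For 11 stellate cell markers the sums were 2811 to 3472, 1724 to 1943, 2913 to 3258 and 2678 to 2948, and 5 fell, and for 12 endothelial markers they were 1644 to 1909, 1316 to 1449, 1555 to 1798 and 1665 to 1855, where 2 fell and 1 rose. The part of these cells in the results was not tested. No lymphocyte (11 measured) or cholangiocyte marker (5 measured) was called in the wild-type response, but most gave no clear signal. At or below the highest array median were 7 of the 11 and 4 of the 5 in wild-type mice on Wy14643. In wild-type mice on control food 6 and 3 were. Ptprc, the brightest lymphocyte marker, had a wild-type response of -0.38 ± 0.11 (adjusted p = 0.0231), and the median of the 11 was -0.01. Neutrophils, a source of Lcn2, left little signal, since 10 of their 11 measured markers were at or below the highest array median in every group, S100a8, S100a9, Elane and Mpo included. Of the adipocyte markers Adipoq, Lep and Retn were at or below it in every group, while Fabp4 and Cidec rose in wild-type mice on Wy14643. As a check of the genotype, all 3 Ppara probe sets were lower in PPARα-null than in wild-type mice on either food with no overlap of the mice, though signal remained (mean log2 level 6.17 to 9.63 in PPARα-null and 7.76 to 10.78 in wild-type groups), and whether these probes lie in the deleted part is not given in the sources used here. The pairwise correlation of arrays within a group was 0.98 to 0.99, and replicate 4 of the PPARα-null mice on Wy14643 had the lowest 75th percentile of intensity, 22.1 beside 25.3 to 27.7 on the others.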

How the data were processed

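Livers of 16 mice, 4 per group, were measured on 1 Affymetrix array each. The intensity values were deposited as summarized by the authors with GCRMA 2.20, as the submitters' processing notes give it. GCRMA corrects background by probe sequence and equalizes the distributions of the arrays, which hides any shift common to most genes. The linear scale was inferred from the values, and log2 was taken without an offset. The labels and the study's methods differ in mice per group and in the amount of RNA. After 64 control probe sets of 45101 were dropped, 34945 probe sets named 1 gene, 932 several and 9160 none in the platform annotation. The labels describe separate animals, and the number of arrays limits the precision.

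For each probe set, limma 3.58.1 (R 4.3.3) estimated the 4 group means from the 16 arrays jointly. The two-sided p-values of all 45037 probe sets were corrected together (Benjamini-Hochberg). The script was tested on simulated data. The 10 genes and 14 further gene lists were chosen with earlier results of these data known, and no list was tested as a set. Per list, up to 3 called genes with the largest difference and a higher group mean of at least 6 (log2) were named, or 2 measured genes where none was called. Stat3, Cebpb, Cebpd, Il6ra and Il1r1 were always given, and Orm3, Il1b, Tgfb1, Il1a, Alb, Ttr, Cebpa, Creb3l3, Cd163 and Lrp1 were added for their role. Motifs were searched on either strand of the 250 bases before each start. Alternatives were filters on dim probe sets, other scalings, array weights, other moderation and thresholds, any probe set per gene, only the groups compared, an offset of 16, a replicate block and leaving out each mouse.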

Additional observations from a re-analysis of the deposited data

Results flagged for a closer look

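In 4 of 48 combinations of a probe set and a group, 1 mouse lay far from the other 3 by Dixon's criterion, which chance alone meets in about 1 of 20 groups. Saa1 stood at 9.15 (log2) in replicate 2 of the PPARα-null mice on Wy14643, where the nearest mouse had 7.68, and its second probe set at 9.29 in the same mouse, where the nearest had 7.83. Lcn2 stood at 7.10 in replicate 4 of the PPARα-null mice on control food, where the nearest mouse had 5.97. Saa3 was low in replicate 4 of the wild-type mice on Wy14643, 3.58 where the nearest mouse had 3.85.

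The response to Wy14643 differed between the genotypes for 7 genes by the interaction test of limma (adjusted p under 0.01 over all probe sets). Of all genes, 4.62% were called with a higher response in PPARα-null mice and 5.38% with a lower one. The difference, PPARα-null response minus wild-type response on the log2 scale, was 3.51 and 4.49 at the 2 Saa1 probe sets, 1.75 and 1.70 at the 2 Saa4 probe sets, 1.30 for Orm1, 1.82 for Orm2, 0.66 for Hpx and 1.41 for Apcs. It was -2.66 for Lcn2, a call lost under 3 other settings, and the call of Orm2 was lost in 13 of the 16 fits that left out 1 mouse. The substrains differ along with the genotypes, so substrain and genotype cannot be told apart in these values.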

How the results depend on the processing

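Apart from leaving out mice, 11 other settings were run on the values of each comparison and 10 on those of the interaction, and 1 more, any probe set of a gene, on the counts of calls. Of the 106 values per comparison, 104 kept their direction and call between genotypes on Wy14643, 104 in the wild-type response, 106 in PPARα-null mice and 106 on control food, and 87 of 96 did for the interaction, none with another sign. With only probe sets of mean log2 above 6, 6 of the 10 genes were left to test, 5 were higher in PPARα-null mice on Wy14643, and the genes higher in the wild-type response and lower in the interaction, Lcn2 before, were 0. Testing against a fold of 1.5 gave 0 for both of these, with adjusted p = 0.0213 and 0.0305 for Lcn2, and ended every call of Hpx (adjusted p = 0.247 between genotypes on Wy14643) and that of Saa3 between genotypes on Wy14643 (1.10, adjusted p = 0.0453). The interaction of Lcn2 was also 0 calls with trend and robust moderation (adjusted p = 0.0113) and with log2 of the value plus 16 (-1.95, adjusted p = 0.0101).

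The interaction of Orm2 was the least stable call. It was 1.78 (adjusted p = 0.0110) with arrays centered on their medians and 0.83 (adjusted p = 0.102) with the offset. Testing against a fold of 1.5 ended the call of Orm2 as well (adjusted p = 0.143). The value lay between 1.62 and 2.10 when 1 mouse was left out. That of Saa3 passed at an adjusted p under 0.05 (0.72, adjusted p = 0.0416) and without replicate 3 of the PPARα-null mice on control food (0.87, adjusted p = 0.00738). Leaving out each mouse left 8 genes higher in PPARα-null mice on Wy14643, 7 lower and 1 higher in wild-type mice, 0 in the other 2 comparisons, and 5 to 6 higher and 1 lower in the interaction. Uncalled responses of PPARα-null mice changed sign there, between -0.032 and 0.047 for Hp, -0.038 and 0.034 for Hpx and -0.048 and 0.030 for Saa4.

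Replicate numbers were not taken to pair the mice, since the labels tie no number to a shared litter or day and deviations of mice with the same number correlated between -0.12 and 0.17 over 12877 probe sets, above 0.1 for 2 of 4 pairs between genotypes on either food, 1 of 4 in wild-type mice and 0 of 4 in PPARα-null mice. As a hint of pairing, 6 of 8 mice correlated best with the mouse of their own number between genotypes on either food, against 4 of 8 in wild-type and 1 of 8 in PPARα-null mice. With the replicate number as a block, the interaction of Orm2 was 1.82 with adjusted p = 0.0131, and no other call changed. Probe sets near the array median, such as Orm2 and Saa1 in wild-type mice on Wy14643, limit how large a difference can be read.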
